A study of Mus musculus with 6 samples.

Results

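Interferon-stimulated genes are the genes that cells switch on when interferon, a secreted antiviral signal, binds its receptor. A set of 33 such genes, named by symbol, was followed in differentiating DM1 myoblasts with and without miR-322/-503. All 33 were found among the 55421 genes of the deposited table, and 30 of them were among the 18140 genes with enough counts to be tested. RNA-seq had been run on 3 control libraries and 3 miR-322/-503 libraries, all from cells kept for 4 days in differentiation medium. Both groups were stable lines made from C2C12, an immortal mouse myoblast line, and both carried a GFP transgene followed by 200 CTG repeats, which models the toxic RNA of myotonic dystrophy type 1. The control line carried the empty vector in addition, and the other line the miR-322/-503 overexpression vector. Since a group was 1 drug-selected line, changes acquired during selection and the action of the microRNAs cannot be told apart.

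Interferon production starts when sensors in the cytoplasm or endosome meet viral-type RNA or DNA. Secreted type I interferon binds the receptor IFNAR1/IFNAR2, the kinases JAK1 and TYK2 phosphorylate STAT proteins such as STAT2, which joins IRF9 in a complex that binds the interferon-stimulated response element (ISRE) of target promoters. Type II interferon acts through IFNGR1/IFNGR2, JAK1 and JAK2, and its targets carry the gamma-activated site (GAS). The target genes encode RNA sensors, RNA-binding proteins that block translation, GTPases that attack vacuoles of pathogens, and brakes on the pathway itself. In skeletal muscle a strong expression of such genes is best known from dermatomyositis.

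Library sizes lay between 73532084 and 92157388 estimated counts, of which about 4 stood for 1 read pair, and levels are given as CPM, counts scaled to TMM-normalized library size. All 10 muscle markers looked at were detected, and their summed TPM (a level per transcript length) was 3226 to 3724 in the control and 4269 to 4471 with miR-322/-503. They did not move as one, since Myog was lower (258 to 153 TPM on average, adjusted p = 0.000665) and Acta1 and Myh3 were not called, while the other 7 were higher. Of 8 leukocyte markers, 3 had no counts in any library (Adgre1 and Cd3e among them) and 3 exceeded 3 read pairs in any library, with a summed TPM of 4.80 to 7.19 in the control and 5.71 to 6.49 with miR-322/-503. Of these, the macrophage marker Lyz2 was lower (78 to 141 estimated counts per control library and 0 to 5 per miR-322/-503 library, adjusted p = 0.00289), while Cd68 measured 4.22 and 5.66 TPM and was not called (adjusted p = 0.102). Of 4 endothelial markers, 1 (Tek) exceeded 3 read pairs, and the summed TPM was 0.423 to 0.524 against 1.58 to 2.35. The part of the muscle, leukocyte and endothelial markers in the results below was not tested. In bulk RNA, fewer cells that express a gene and less of its RNA per cell cannot be told apart. The overexpressed microRNAs could not be checked in these libraries, which held 0 to 17 estimated counts of Mir322 and 1 to 6 of Mir503.

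Many promoters of these genes hold the ISRE core, and examples are shown here because genes that moved in either direction hold it. RefSeq promoter windows (GRCm38.p6, 250 bases before to 50 after the start) were at hand for 28 of the 33 genes. The ISRE core GAAANNGAAA, searched on both strands, was present in at least 1 window of 16 of the 28 (57.1%), against 1079 of 27025 genes with a promoter window (3.99%). It was found in 6 of 8 genes that were lower with miR-322/-503, in 2 of 5 that were higher, in 7 of 13 that were tested and not called, and in 1 of 2 that could not be tested. The GAS, TTCNNNGAA, was present in 8 of the 28 (28.6%), against 9.55% of all genes with a window, and in 0 of the 8 lower genes. Cores can overlap one another: in the Isg15 promoter they start 78, 72 and 66 bases before the RefSeq start. A match of letters is not a bound site. For 8 called genes, the first core in the window is given below 5′ to 3′ in the direction of the gene, with the core in capitals. On the opposite strand the core reads TTTCNNTTTC.

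Ifih1, chr2:62646206-62646235, minus strand: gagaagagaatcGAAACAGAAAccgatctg

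Ddx58, chr4:40239804-40239833, minus strand: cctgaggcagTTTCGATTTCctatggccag

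Ifit1, chr19:34640775-34640804, plus strand: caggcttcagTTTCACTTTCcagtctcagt

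Isg15, chr4:156200877-156200906, minus strand: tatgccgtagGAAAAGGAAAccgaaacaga

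Irgm1, chr11:48871431-48871460, minus strand: cctgtttcaaGAAATAGAAAccgaaactga

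Trim30a, chr7:104465210-104465239, minus strand: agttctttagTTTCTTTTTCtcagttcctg

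Gbp2, chr3:142620594-142620623, plus strand: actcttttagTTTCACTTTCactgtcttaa

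Rsad2, chr12:26456553-26456582, minus strand: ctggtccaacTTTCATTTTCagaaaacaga

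The first 6 of these genes were lower and the last 2 were higher with miR-322/-503. Whether the share of promoters with a core differed between lower and higher genes was not tested. In Ifih1 and Ddx58 the core lay 32 and 2 bases after the RefSeq start, and in Rsad2 it lay 120 bases before it.

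**Figure D1:**
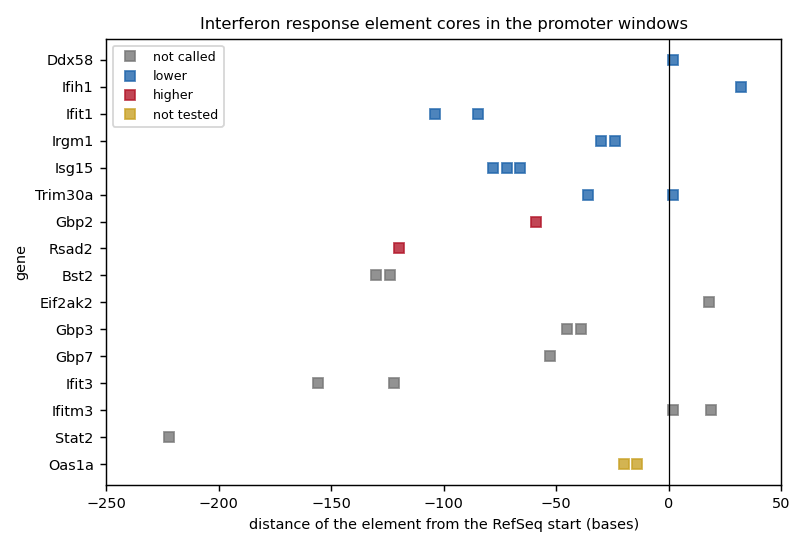
Position of each ISRE core in the promoter windows of 16 interferon-stimulated genes, as the distance in bases from the RefSeq start (x axis). Genes are in rows and squares are coloured by the call with miR-322/-503. The squares run from 222 bases before the start in Stat2 to 32 bases after it in Ifih1.

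The interferon-stimulated genes did not move as a block. Between the miR-322/-503 and the control libraries, 9 of the 30 tested genes were lower and 5 were higher at an adjusted p-value under 0.05 (edgeR's quasi-likelihood test, adjusted over all tested genes), while 16 were not past it. Among all tested genes 28.8% were called, 15.5% lower and 13.2% higher, against 46.7%, 30% and 16.7% of these 30. A fall of more than 2-fold was reached by 5 genes (16.7%, against 5.29% of all tested genes) and a rise of more than 2-fold by 1 gene (against 4.59%). The first count was 3 without control replicate 2. It was 0 with limma on log2(TPM + 1), where the pseudocount of 1 lowers the change of low genes. The 2 groups of libraries did not overlap for 13 genes that lay lower and 5 that lay higher with miR-322/-503, where the shares among all tested genes were 23.5% and 21.6%. The median log2 fold change (log2FC, miR-322/-503 against control, given with its standard error, SE) of the 30 genes was -0.19, and that of all tested genes was -0.01. Of the 14 calls, 8 held under every one of 13 alternatives (lower Ifih1, Ddx58, Ifit1, Isg15, Irgm1 and Trim30a, higher Gbp2 and Xaf1), and the count of higher genes ranged from 2 to 4 when 1 library was left out.

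**Figure D2:**
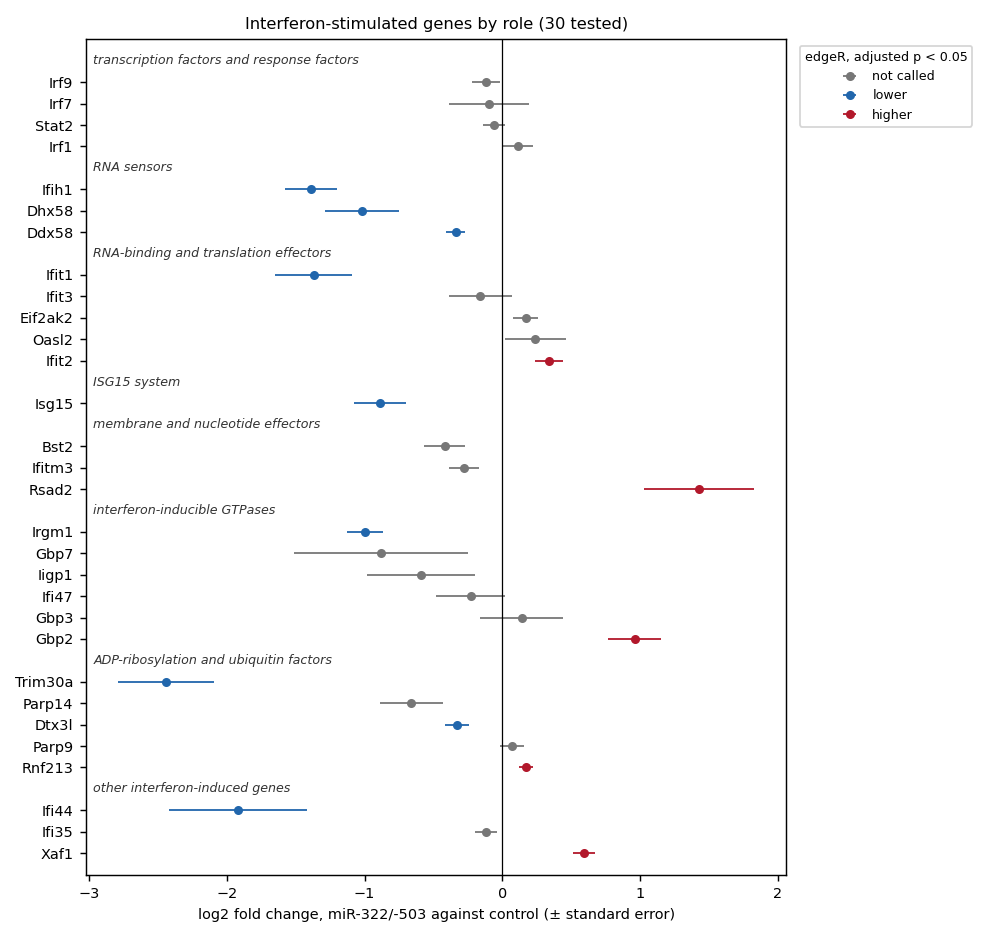
Log2 fold change of the 30 tested interferon-stimulated genes (x axis, miR-322/-503 against control) with its standard error, in blocks by role and coloured by the call at an adjusted p-value under 0.05. The RNA sensors all lie below 0, the transcription factors lie near 0, the ISG15 block holds 1 gene below 0, and the other blocks hold genes on both sides.

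Levels differed by orders of magnitude between the genes, and are compared here in TPM. Ifitm3, which encodes a membrane protein that stops enveloped viruses from fusing with endosomes, was by far the most abundant, with a mean of 661 TPM over the 6 libraries. The next were Irf1, a transcription factor, with 38.6 TPM, Eif2ak2, which encodes the kinase PKR that halts translation on double-stranded RNA, with 28.8 TPM, Xaf1 with 26.6 TPM and Ifi35 with 25.9 TPM. Irf1, at 32.9 to 44.0 TPM, lay above every library of Eif2ak2 and Ifi35 but overlapped the range of Xaf1 (19.4 to 34.1 TPM), and the ranges of Eif2ak2, Xaf1 and Ifi35 overlapped one another. A mean above 10 TPM was reached by 12 of the 33 genes, and 10 lay under 1 TPM. The summed level of all 33 was 941 to 1062 TPM in the control and 809 to 918 TPM with miR-322/-503. Without Ifitm3 it was 278 to 299 TPM against 254 to 279 TPM, so that these sums overlapped slightly, while the sums of all 33 did not.

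The factors that carry the interferon signal to the genome were expressed and not called. Stat2 and Irf9, whose products take part in the complex that binds the ISRE, had log2FCs of -0.06 (adjusted p = 0.648) and -0.12 (adjusted p = 0.429). Stat2 measured 22.4, 23.1 and 23.9 CPM in the control and 21.9, 23.6 and 21.2 CPM with miR-322/-503, and Irf9 measured 15.0, 13.3 and 15.3 CPM against 14.4, 12.8 and 13.2 CPM. The groups overlapped for both. Irf1, which is induced by interferon gamma and also by TNF through NF-κB, measured 37.0, 39.3 and 38.8 CPM in the control and 47.4, 41.2 and 35.7 CPM with miR-322/-503 (log2FC 0.11, SE 0.11, adjusted p = 0.487). Its lowest and its highest library were both in the miR-322/-503 group. The log2FC of Irf1 was 0.01 without miR-322/-503 replicate 1 and 0.21 without miR-322/-503 replicate 3. Irf7, the factor that amplifies type I interferon production, was low, with 0.928 ± 0.278 CPM in the control and 0.864 ± 0.0924 CPM with miR-322/-503 (mean ± SD, n = 3), and a log2FC of -0.10 (adjusted p = 0.836).

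All 3 genes of the RIG-I-like receptors, the helicases that sense viral RNA in the cytoplasm, were lower with miR-322/-503, where 15.5% of all tested genes were. Ifih1 encodes MDA5, which binds long double-stranded RNA, and lies on chromosome 2 of GRCm38 from 62595798 to 62646255. It measured 6.23, 6.54 and 6.63 CPM in the control libraries and 2.0, 3.15 and 2.27 CPM in the miR-322/-503 libraries. The groups were far apart, with a log2FC of -1.39 (SE 0.19, adjusted p = 0.00131), or 2.62-fold lower. Ddx58 encodes RIG-I, which senses RNA with a 5′ triphosphate, and lies on chromosome 4 from 40203773 to 40239828. It was more abundant, with 44.1, 46.5 and 49.1 CPM in the control and 37.4, 34.4 and 38.5 CPM with miR-322/-503. Again no library crossed over, but the difference was small, with a log2FC of -0.34 (SE 0.07, adjusted p = 0.0119). Over the 1046 genes tested on chromosome 4 the median was -0.19, and relative to it Ddx58 lay at -0.16. Dhx58 encodes LGP2, which has no signaling domain of its own and modulates the other sensors. It measured 1.40, 1.5 and 1.87 CPM against 0.955, 0.573 and 0.824 CPM (log2FC -1.02, SE 0.27, adjusted p = 0.0274). An antisense transcript covers 4.31% of its exonic bases, and the strand setting of the counting is not given in the sources used here. Opposite-strand overlap was larger in other called genes named below, with 8.74% in Rnf213, 7.32% in Tlr3, 11.3% in Myd88 and 23.5% in Trim34a. The call of Dhx58 was lost without control replicate 2 or 3 or miR-322/-503 replicate 2 or 3, with adjusted p-values up to 0.0834, while its log2FC stayed below 0.

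**Figure D3:**
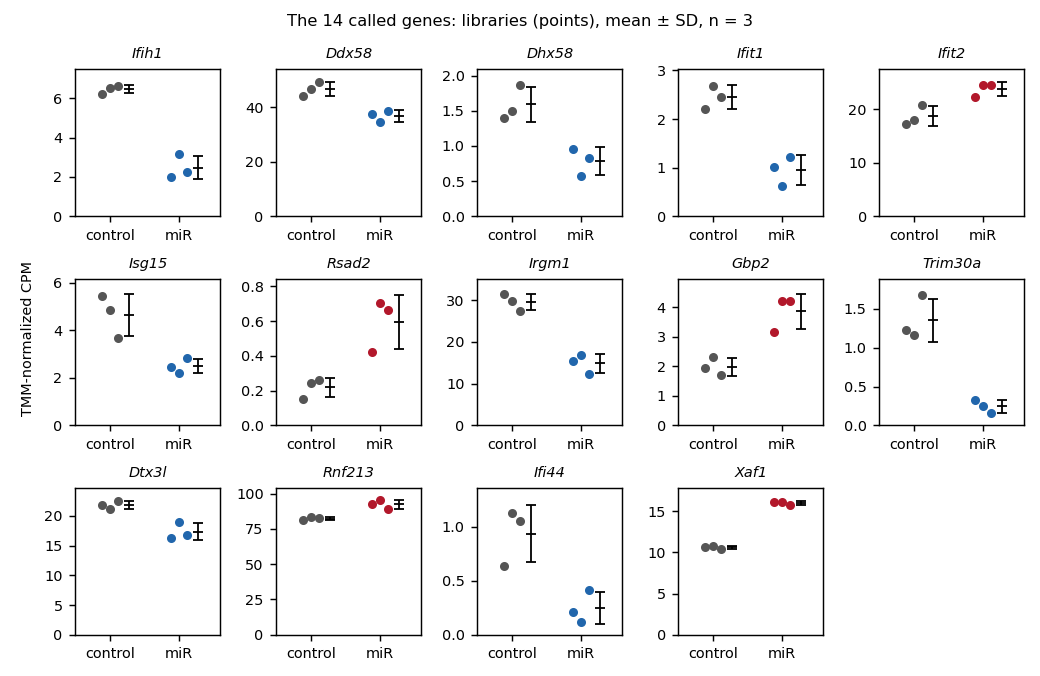
TMM-normalized CPM (y axis, from 0) of the 14 called genes in each library. Points are libraries, the bar beside them is the mean ± SD of 3 libraries, and blue and red mark lower and higher with miR-322/-503. The groups do not overlap in any panel, and the replicates of Xaf1 lie close together, with 10.6 ± 0.173 CPM against 16.0 ± 0.242 CPM.

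The Ifit genes are neighbours on chromosome 19 and encode proteins that bind foreign or incompletely capped RNA and stop its translation, and they did not move together. Ifit1, from 34640871 to 34650009, measured 2.20, 2.69 and 2.46 CPM in the control and 1.02, 0.613 and 1.21 CPM with miR-322/-503. Each miR-322/-503 library lay well under each control library, with a log2FC of -1.37 (SE 0.28, adjusted p = 0.00872). Ifit2, from 34550694 to 34576419, went the other way, with 17.3, 18.1 and 20.9 CPM against 22.4, 24.6 and 24.5 CPM. Its log2FC was 0.34 (SE 0.10, adjusted p = 0.0349), or 0.21 relative to the median of chromosome 19. The call of Ifit2 was lost without control replicate 1 or 2 and without any 1 of the miR-322/-503 replicates, with adjusted p-values up to 0.110. Ifit3 measured 3.26, 3.97 and 2.23 CPM against 2.90, 2.63 and 2.97 CPM, with a log2FC of -0.16 (adjusted p = 0.664), and control replicate 3 lay under all other libraries. Of the windows of 75 bases in Ifit3 transcripts, 41.1% are found word for word in Ifit3b, so reads of this pair may have been shared between the genes.

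The other RNA-directed effectors were not called or were barely expressed. Eif2ak2 measured 52.8, 50.6 and 62.5 CPM in the control and 62.9, 59.3 and 63.9 CPM with miR-322/-503, with a log2FC of 0.17 (adjusted p = 0.215) and overlapping groups. Without control replicate 3, its highest control library, it was past the threshold (adjusted p = 0.0322). With control replicate 2 left out instead, the log2FC was 0.10 (adjusted p = 0.496). Oasl2, of the family of the oligoadenylate synthetases that activate RNase L, had a log2FC of 0.24 (adjusted p = 0.466). Over all alternatives this ran from 0.07 to 0.36. Oas1a, of the same family, had no counts in 5 libraries and 6 estimated counts in miR-322/-503 replicate 3, under the 12 that correspond to 3 read pairs. It shares 47.6% of its windows with Oas1g. At this depth, a difference in Oas1a was not detectable.

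Isg15 encodes the ubiquitin-like modifier that is attached to newly made proteins during infection, and lies on chromosome 4 from 156199455 to 156200796. It measured 5.43, 4.86 and 3.66 CPM in the control and 2.48, 2.20 and 2.82 CPM with miR-322/-503. The lowest control library was above the highest miR-322/-503 library, with a log2FC of -0.89 (SE 0.19, adjusted p = 0.0114), and relative to the median of chromosome 4 it was -0.71. Usp18, which encodes the protease that removes ISG15 and also blocks the type I receptor, could not be tested, since control libraries held 5, 5 and 0 estimated counts and miR-322/-503 libraries 13, 7 and 10.

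Among the membrane and nucleotide effectors, the abundant genes were not called and a scarce gene rose. Ifitm3 measured 229, 281 and 270 CPM in the control and 187, 229 and 229 CPM with miR-322/-503 (log2FC -0.28, SE 0.11, adjusted p = 0.104). The lowest control library and the highest miR-322/-503 libraries were nearly level. Bst2, which encodes tetherin, a protein that holds budding virions at the cell surface, measured 10.9, 7.63 and 8.72 CPM against 7.18, 6.37 and 6.74 CPM, a log2FC of -0.42 (adjusted p = 0.0713). It was past the threshold without control replicate 2, with an adjusted p-value of 0.0401. Without control replicate 1 the log2FC of Bst2 was -0.27 (adjusted p = 0.195). Rsad2 encodes viperin, which makes a chain-terminating nucleotide, and lies beside Cmpk2, a nucleotide kinase, on chromosome 12. Rsad2 rose from 0.155, 0.242 and 0.261 CPM to 0.420, 0.707 and 0.665 CPM (log2FC 1.43, SE 0.40, adjusted p = 0.0342). This rested on 12 to 22 estimated counts per control library and 40 to 53 per miR-322/-503 library, about 4 of which stand for 1 read pair. With counts divided by 4 it had too few to be tested, and the call was lost without any 1 of the control replicates or without miR-322/-503 replicate 2 or 3 (adjusted p-values up to 0.107). Cmpk2 had 0 to 9 estimated counts and was not tested.

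The interferon-inducible GTPases, which gather on the vacuoles of intracellular pathogens, gave 1 lower and 1 higher call among 6 (16.7% each, near the 15.5% and 13.2% of all tested genes). Irgm1, the regulator of the immunity-related GTPases and of autophagy, lies on chromosome 11 from 48861968 to 48871683. It measured 31.4, 29.9 and 27.5 CPM in the control and 15.4, 16.8 and 12.3 CPM with miR-322/-503. The groups were wide apart, with a log2FC of -1.0 (SE 0.13, adjusted p = 0.000970). Gbp2, a guanylate-binding protein gene on chromosome 3 from 142620602 to 142638008, rose from 1.94, 2.30 and 1.71 CPM to 3.16, 4.21 and 4.2 CPM. The lowest miR-322/-503 library exceeded the highest control library, and the log2FC was 0.96 (SE 0.19, adjusted p = 0.00866). Its neighbour Gbp2b, looked up after this value was seen, was also higher, with a log2FC of 1.15 (adjusted p = 0.00417), and 0.955% of the windows of Gbp2 occur in it. Gbp3 and Gbp7, on the same chromosome, were not called, with log2FCs of 0.14 (adjusted p = 0.771) and -0.88 (adjusted p = 0.354). Gbp7 measured 0.853, 1.02 and 1.20 CPM in the control and 0.934, 0.613 and 0.106 CPM with miR-322/-503, so that miR-322/-503 replicate 3 stood apart from the rest of its group. Its log2FC was -0.40 without that library and -1.50 without miR-322/-503 replicate 1. Ifi47 and Iigp1, of the same family as Irgm1, had log2FCs of -0.23 (adjusted p = 0.555) and -0.59 (adjusted p = 0.317). That of Ifi47 was -0.36 without miR-322/-503 replicate 1 and -0.13 without miR-322/-503 replicate 2. That of Iigp1 was -0.36 without control replicate 2 and -0.90 without control replicate 3.

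Trim30a, a ubiquitin ligase gene of the TRIM family on chromosome 7 from 104409025 to 104465193, had the lowest log2FC of the 30 genes in the edgeR fit to all 6 libraries. It measured 1.23, 1.16 and 1.67 CPM in the control and 0.325, 0.253 and 0.160 CPM with miR-322/-503, the latter from 12 to 31 estimated counts per library. It was 5.44-fold lower (log2FC -2.44, SE 0.35, adjusted p = 0.00178). Of its windows, 4.98% occur in its paralog Trim30d. The order depended on the libraries used. Trim30a stood at -2.21 and Ifi44 at -2.48 when miR-322/-503 replicate 3 was left out. Limma on log2(TPM + 1) gave -0.60 for Trim30a and -0.95 for both Ifih1 and Irgm1. There the pseudocount of 1 lowers the change of low genes such as Trim30a (0.712 TPM in the control on average). The limma values therefore do not rank the falls.

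Parp9 and Dtx3l encode an ADP-ribosyltransferase family member and the ubiquitin ligase that works in a complex with it. The genes lie head to head on chromosome 16 and share 458 exonic bases, which are 8.0% of those of Dtx3l. Dtx3l measured 21.9, 21.1 and 22.5 CPM in the control and 16.2, 18.9 and 16.8 CPM with miR-322/-503 (log2FC -0.33, SE 0.09, adjusted p = 0.0279). Parp9 measured 23.3, 22.2 and 26.7 CPM against 26.4, 24.7 and 24.9 CPM, with a log2FC of 0.07 (adjusted p = 0.606). Thus Dtx3l was separated between the groups while Parp9 was not, although the difference between the genes was not tested. The call of Dtx3l was lost without control replicate 1 or 3 or miR-322/-503 replicate 1 or 3 (adjusted p-values up to 0.0853). Parp14, which encodes a mono-ADP-ribosyltransferase, had non-overlapping groups, with 3.80, 3.16 and 4.22 CPM against 2.30, 1.76 and 2.99 CPM, but was not called (log2FC -0.66, adjusted p = 0.0662). Without miR-322/-503 replicate 3 its adjusted p-value was 0.0350, and over all alternatives it ran from 0.0232 to 0.402. Rnf213, a very large ubiquitin ligase gene, measured 81.2, 83.4 and 82.5 CPM in the control and 92.4, 95.6 and 89.2 CPM with miR-322/-503. This small rise (log2FC 0.17, SE 0.05, adjusted p = 0.0482) was lost in each of the fits without 1 library.

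Of the remaining genes, Xaf1, which encodes an antagonist of the apoptosis inhibitor XIAP, rose on chromosome 11 (72301629 to 72313733) from 10.6, 10.8 and 10.4 CPM to 16.1, 16.1 and 15.7 CPM. With replicates this close (log2FC 0.59, SE 0.08) had an adjusted p-value of 0.00118. Ifi44 fell from 0.633, 1.13 and 1.05 CPM to 0.210, 0.12 and 0.412 CPM (log2FC -1.92, SE 0.50, adjusted p = 0.0246). Its miR-322/-503 libraries held 9 to 31 estimated counts, and the call was lost without control replicate 2 or 3 or miR-322/-503 replicate 1 or 2 (adjusted p-values up to 0.0801). Ifi35 measured 20.1, 17.7 and 18.3 CPM in the control and 17.1, 17.3 and 17.2 CPM with miR-322/-503, with a log2FC of -0.12 (adjusted p = 0.320).

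**Figure D4:**
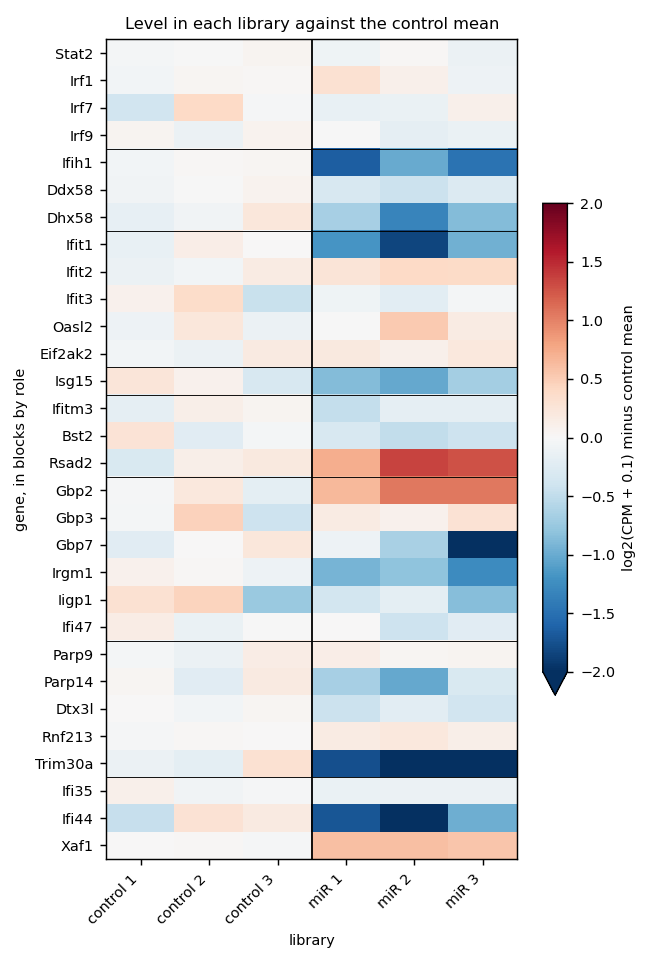
Level of the 30 tested genes in each library, as log2(CPM + 0.1) minus the mean of the control libraries (colour, clipped at -2 and 2), in blocks by role. Trim30a, Ifi44, Ifih1 and Ifit1 are blue in all 3 miR-322/-503 libraries, Rsad2, Gbp2 and Xaf1 are red in all 3, and Gbp7 is dark in miR-322/-503 replicate 3.

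Next, the genes that act upstream of the 33 were followed from ligand to brake. None of the 9 interferon genes looked at was detected above 3 read pairs. Ifnb1, the first type I interferon made by non-immune cells, had no counts in any library, which allows up to 3 read pairs in each, and the same held for Ifna1, Ifna2, Ifna4, Ifnk, Ifnl2 and Ifnl3. Ifng had 0 to 11 and Ifne had 0 to 6 estimated counts per library. Of 6 receptor genes 5 were tested, and Ifnlr1, a chain of the lambda interferon receptor, had 0 to 7 estimated counts and was not. Ifnar1 rose from 62.2 ± 5.41 to 79.4 ± 1.52 CPM (SD, n = 3) (log2FC 0.35, SE 0.07, adjusted p = 0.00874), while its partner Ifnar2 had a log2FC of -0.05 (adjusted p = 0.677). Ifngr1, the ligand-binding chain for interferon gamma, fell from 24.7 ± 0.602 to 18.2 ± 0.561 CPM (log2FC -0.44, SE 0.07, adjusted p = 0.00365).

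Of the 5 relay genes, 1 was called (20%, against 28.8% of all tested genes). Jak2, the kinase of the interferon gamma receptor and of many cytokine receptors, fell from 78.1 ± 10.1 to 49.0 ± 2.46 CPM (SD, n = 3) (log2FC -0.67, SE 0.10, adjusted p = 0.00202). Jak1 and Tyk2 had log2FCs of -0.13 (adjusted p = 0.128) and -0.14 (adjusted p = 0.273). They lay at -0.14 to -0.11 and -0.21 to -0.09 over the 13 alternative fits and were called in none. Relative to the medians of their chromosomes, 4 and 9, the log2FCs turned to 0.06 and 0.13, so their direction depended on the reference.

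The sensors and adaptors that lead to interferon production were followed outside the 33 as well. Of 12 sensors and adaptors, 5 were lower and 1 was higher (41.7% and 8.33%, beside 15.5% and 13.2% of all tested genes). Cgas, which encodes the sensor of cytoplasmic DNA, fell from 8.13 ± 1.13 to 4.15 ± 0.236 CPM (SD, n = 3) (log2FC -0.97, SE 0.14, adjusted p = 0.00164). Tmem173, which encodes STING, the adaptor downstream of cGAS, had a log2FC of -0.67 (adjusted p = 0.0283). Its call was lost without control replicate 1 or 2 or miR-322/-503 replicate 2 or 3 (adjusted p-values up to 0.0897). Tlr3, the endosomal sensor of double-stranded RNA, fell from 20 ± 3.84 to 10.6 ± 1.65 CPM (log2FC -0.92, SE 0.17, adjusted p = 0.00563). Aim2 and Zbp1, which also encode nucleic acid sensors, were not called, with log2FCs of -0.04 (adjusted p = 0.934) and 0.67 (adjusted p = 0.0636), and were named after their values were seen. Myd88, the adaptor of most Toll-like receptors, had a log2FC of -0.49 (adjusted p = 0.00447). Cgas and Myd88 lie on chromosome 9, where the median over tested genes was -0.27, and relative to it they lay at -0.70 and -0.23.

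Of 8 genes that restrain the pathway, 2 were lower (25%, against 15.5% of all tested genes). Socs3, which blocks JAK kinases bound to IL-6 family and other receptors, fell from 124 ± 9.39 to 36.0 ± 6.57 CPM (SD, n = 3) (log2FC -1.79, SE 0.13, adjusted p = 7.31e-05). Socs1, the main brake on interferon receptors, measured 1.76, 1.62 and 1.27 CPM in the control and 1.94, 2.61 and 1.68 CPM with miR-322/-503, with a log2FC of 0.42 (adjusted p = 0.241). Over all alternatives the log2FC of Socs1 ran from 0.21 to 0.55. Irf2, which competes with IRF1 for its sites, had a log2FC of -0.56 (adjusted p = 0.0469), and this call was lost in the fits without any 1 of the control replicates or miR-322/-503 replicate 1 or 3 (adjusted p-values up to 0.136).

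**Figure D5:**
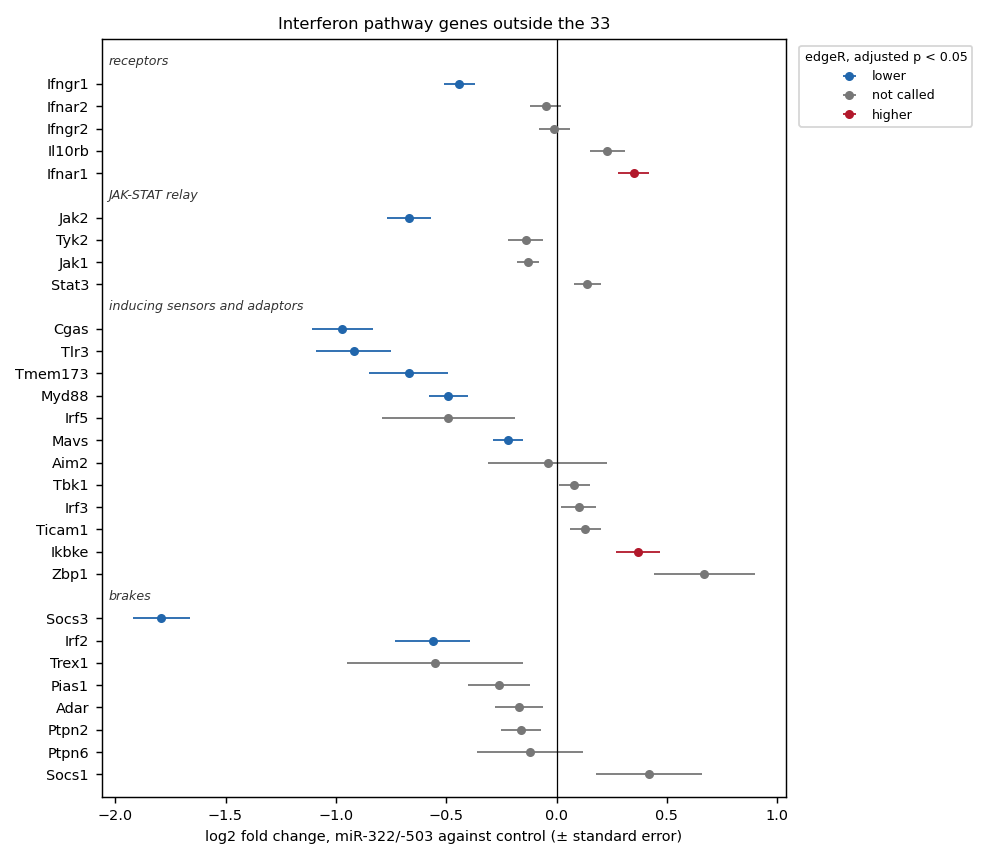
Log2 fold change (x axis, miR-322/-503 against control) with its standard error of tested genes in 4 lists of the interferon pathway that are not among the 33 genes, coloured by the call. Socs3 lies furthest below 0, Cgas, Tlr3 and Jak2 are lower, and Ifnar1 and Ikbke are higher.

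Further interferon-stimulated genes outside the 33 also held calls in both directions. Of 46 listed, 32 were tested, 12 were lower and 3 were higher (37.5% and 9.38%, beside 15.5% and 13.2% of all tested genes), with a median log2FC of -0.30. Sp100, which encodes a protein of PML nuclear bodies, had the largest fall, from 12.7, 14.1 and 16.6 CPM to 0.703, 0.907 and 0.452 CPM (log2FC -4.39, SE 0.25, adjusted p = 2.19e-05). Phf11d fell from 2.72 ± 0.432 to 0.522 ± 0.227 CPM (SD, n = 3), a log2FC of -2.38 (adjusted p = 0.00213). Gbp8 and Trim34a had log2FCs of -2.29 (adjusted p = 0.0246) and -1.96 (adjusted p = 0.0217). The call of Gbp8 was lost without any 1 of the control replicates or miR-322/-503 replicate 2 or 3 (adjusted p-values up to 0.0759), and that of Trim34a without control replicate 1 or miR-322/-503 replicate 1 (up to 0.0737). Trim34a shares 48.6% of its windows with other genes, mainly Trim34b. Mx1, also an interferon-stimulated gene, had no counts in the control libraries and 24, 9 and 0 estimated counts with miR-322/-503, too few to be tested.

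The seed of the overexpressed microRNAs was compared with the 3′ UTRs of the set, since it is the sequence by which they recognise targets. Both microRNAs belong to the miR-16 family and share the seed bases AGCAGC, shown here with bases 2 to 8 in capitals.

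miR-322-5p: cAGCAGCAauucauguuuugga

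miR-503-5p: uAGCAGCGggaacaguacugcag

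The match to bases 2 to 8 of miR-322-5p, TGCTGCT, was found in the longest annotated 3′ UTR of 6 of the 33 genes (18.2%), against 27.0% of the 13487 tested genes with such a UTR. None of the 9 lower genes held this match or that of miR-503-5p, CGCTGCT, which was found in 2 of the 33 (6.06%, against 5.72%). Among the genes with a match was Rsad2, which was higher, with 2 overlapping copies in the run cccagcctctgaTGCTGCTgcttcaagatg. The others with the miR-322-5p match were Ifit3, Irf1, Parp14 and Stat2, which were not called, and Oas1a, which was not tested. The median length of the UTRs was 999 bases in the set and 1343 bases among all tested genes, and no correction for length was made.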

How the data were processed

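RNA-seq of 6 libraries was used, 3 per group, with groups and replicate numbers from the titles. Per the labels and methods, the authors used Trim Galore for trimming, HISAT2 for alignment (GRCm38) and StringTie for estimated counts per gene, deposited as whole numbers. The authors' StringTie tables of single libraries hold coverage per base, TPM and FPKM, the last of which was not used. Versions and gene annotation are not given in the sources used here.

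The estimated counts were tested with edgeR 4.0.16 (filterByExpr, TMM, glmQLFit, glmQLFTest, Benjamini-Hochberg over 18140 genes) in R 4.3.3, and a gene was called at an adjusted p-value under 0.05. The standard error is the log2 fold change over the square root of F. For genes with 1 transcript, coverage times length gave 74.97 bases per estimated count, while the commonest value among scarce genes was 300 covered bases, so about 4 counts stand for 1 read pair and 12 counts (3 pairs) were taken as the floor. Floors cover counting error only. Replicates were distinct libraries (chi-square per degree of freedom 14.8 to 21.3 between them). The p-values measure the spread between these libraries, which may be technical. The methods speak of biological and technical replicates for assays in general, and the labels do not say which these libraries are.

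The 33 genes and the lists were chosen with earlier results of these data known. All 33 are named; those called, or among the 5 with the highest TPM, are given in every library. From each pathway list at most 4 called genes with the largest change are named, plus Ifnar1, Ifnar2, Jak1, Tyk2, Mx1, Socs1 and Ifnb1, and 1 further gene of that rule is not reported here. Gbp2b, Aim2, Zbp1, Ifnlr1, the ligand genes other than Ifnb1 and, in a caption, Ikbke were named outside this rule after their values were seen. Exons and 3′ UTRs (at least 50 bases) came from GENCODE M21, promoters and microRNAs from RefSeq (GRCm38.p6). Shared sequence was measured as windows of 75 bases found in another gene's transcripts, in place of the protein comparison first planned. DESeq2 1.42.0, limma 3.58.1 on log2(TPM + 1) and other settings were tried as alternatives. The edgeR, DESeq2 and limma fits were tried on simulated counts, and the ISRE search on a made-up sequence.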

Additional observations from a re-analysis of the deposited data

How the results depend on the processing

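The alternatives were DESeq2, other size factors, 2 other filters, counts divided by 4, limma on log2(TPM + 1), a replicate block and the leaving out of each library. The count of 9 lower genes was within 1.5 times of that under each, although single calls were lost, and the fits without 1 library gave 6 to 8 lower and 2 to 4 higher genes, with fewer samples by construction. The 5 higher genes became 2 with limma on log2(TPM + 1) and 3 with no filter. Past 2-fold, 5 genes were lower and 1 was higher. These became 0 and 0 with limma, where the pseudocount of 1 lowers the change of low genes, 0 higher with counts divided by 4, and 3 to 5 lower and 0 to 2 higher without 1 library. Of 62 genes tested outside the 33, 21 were lower and 5 higher (33.9% and 8.06%, beside 15.5% and 13.2% of all tested genes), with 3 higher with limma, and 14 to 19 lower and 2 to 4 higher without 1 library. The median log2 fold change of -0.19 was -0.14 with at least 10 counts in every library, -0.13 with limma, -0.15 with no filter, -0.12 over genes with at least 1 TPM and -0.25 to -0.13 without 1 library. The cause of the other moves was not tested. With limma the calls of Dtx3l, Ifit2, Rnf213 and Rsad2 were lost, and with no filter those of Ifit2 and Rnf213. DESeq2 called 16 of the genes, including all 14, and added Bst2 and Parp14.

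Sharing a replicate number did not make libraries alike (correlations of same-numbered deviations 0.131, 0.0687 and 0.0451). With the replicate block, 17 genes were called, the 14 and also Bst2, Ifitm3 and Parp14. Among the 33 genes and the genes outside them that the naming rule covers, those not called changed sign in 6 cases: Jak1 (0.06) and Tyk2 (0.13) relative to the median of their chromosome, Gbp3 (-0.06 without control replicate 3, and -0.06 to 0.44 without any 1 library), Ifit3 and Irf7 (0.04 and 0.14 without control replicate 2, -0.35 to 0.04 and -0.29 to 0.14 without any 1 library), and Irf1 to -0.01 with limma. Depth limits Oas1a, Cmpk2 and Usp18, which were not tested, and Rsad2 and Ifi44, with 9 to 93 counts per library.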
